A study of Mus musculus with 3 samples.

Results

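Among the Nkx2.2 regions that lie well inside genes, 1087 carried more signal in oligodendrocyte progenitor cells (OPCs) than in oligodendrocytes (OLs). They were chosen from a deposited table of 37271 regions by 4 conditions: no CpG island, at least 1 listed gene that contains the region, a smallest distance to a listed gene start above 10000 and at most 100000 bp, and log2((OL + 1)/(OPC + 1)) of the average signal at -0.5 or less. The first 3 conditions gave 7778 regions, here called mid-gene regions, so the members made up 14.0% of them (95% interval 13.2 to 14.8%). At 5071 other mid-gene regions (65.2%) the log2 ratio was at least 0.5, and 1620 lay between the limits. Because the ratio chose the members, their signal, ratio and calls are given as a description and nothing is tested on them.

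The study mapped Nkx2.2 by chromatin immunoprecipitation and sequencing (ChIP-seq) in cultured mouse cells, asking where the factor sits in progenitors and in the oligodendrocytes made from them. All cells came from C57BL/6 cortex at postnatal day 7 and were selected with an antibody to PDGFRA. They were expanded in serum-free medium that held PDGF-AA (10 ng/mL), NT-3 (1 ng/mL) and CNTF (10 ng/mL), and the OPC library was made from cells kept in it. For the OL library, PDGF-AA was withdrawn and the thyroid hormone T3 (40 ng/mL) was present for 48 h, after which the cells are described as postmitotic. Each ChIP library is listed with 1.5e7 cells and was made with a monoclonal Nkx2.2 antibody. The input library was not analysed here. With 1 library per state there is no replicate, so no test between the states was run, and every difference below lies between 2 libraries. The table holds no expression values, so the identity of the cells could not be checked against markers.

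Nkx2.2 is a homeodomain transcription factor of the NK2 class that acts mainly as a repressor, recruiting Groucho corepressors, and it is needed for the timely maturation of oligodendrocytes. OPCs divide in response to PDGF and, on its withdrawal, leave the cell cycle and begin to make myelin. Transcription factors often occupy sites inside genes, far from the start, where enhancers and silencers lie. A site inside a gene need not act on that gene.

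No sequence of a member is printed, because the regions are in build mm9 and no mm9 genome was used here. The starts of 2 genes whose mid-gene regions are described below are printed instead, from RefSeq promoters of build GRCm38.p6, because in both the region nearest the start had more OL signal while the members inside the gene had more OPC signal. Each run is the 250 bases before the start, read along the gene, with capitals marking AAGTG or its complement CACTT, the core bound by NK2 homeodomains. The core was searched on both strands. Atxn7l1, described below, has the same pattern, but RefSeq gives it 5 promoters and the table does not say which start it used, so none is printed.
Polr3b, chr10:84622048-84622297, plus strand: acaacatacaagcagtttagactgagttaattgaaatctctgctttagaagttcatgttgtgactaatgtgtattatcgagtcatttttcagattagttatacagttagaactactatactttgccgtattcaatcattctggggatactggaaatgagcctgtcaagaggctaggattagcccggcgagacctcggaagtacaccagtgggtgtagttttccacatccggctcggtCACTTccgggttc
Ptch1, chr13:63565736-63565985, minus strand: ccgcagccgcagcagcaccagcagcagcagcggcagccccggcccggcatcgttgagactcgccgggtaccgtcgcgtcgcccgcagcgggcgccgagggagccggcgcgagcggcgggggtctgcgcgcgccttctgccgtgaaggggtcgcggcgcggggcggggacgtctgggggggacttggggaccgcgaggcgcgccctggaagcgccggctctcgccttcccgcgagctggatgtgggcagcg
The start region of Ptch1, 608 bp long and at -640 bp in the table, lies further upstream than the printed run, while that of Polr3b, 414 bp long and at -225 bp, overlaps it if the starts are the same in both builds. The Polr3b run held the core once and the Ptch1 run held no match. The core was present in 40.7% of all 32851 promoters of this length (13374), so a match of these letters is common.

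The members were mostly modest regions whose OL signal was low but seldom absent. Their average signal ran from 3.14 to 68.8 in OPC, with a median of 5.60 and quartiles of 4.46 and 7.58. In OL it ran from 0 to 29.1, with a median of 2.25 and quartiles of 1.58 and 3.35. The median log2 ratio was -0.99, which is 1.98-fold more OPC than OL signal on the scale with 1 added, and the lowest was -3.07. The highest point within a region had a median of 11 in OPC and 4 in OL, and in 3 members the OL peak reached or passed the OPC peak. The OL average was listed at 0 in 57 members and at 1 in 91. No average in either library lies between 0 and 1, so values of 0 and 1 are not points of a continuous scale, and no fold is given against 0. The averages may cover only positions with signal, which would raise those of weak regions and alter their ratios, and how they were formed is not stated.

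**Figure D1:**
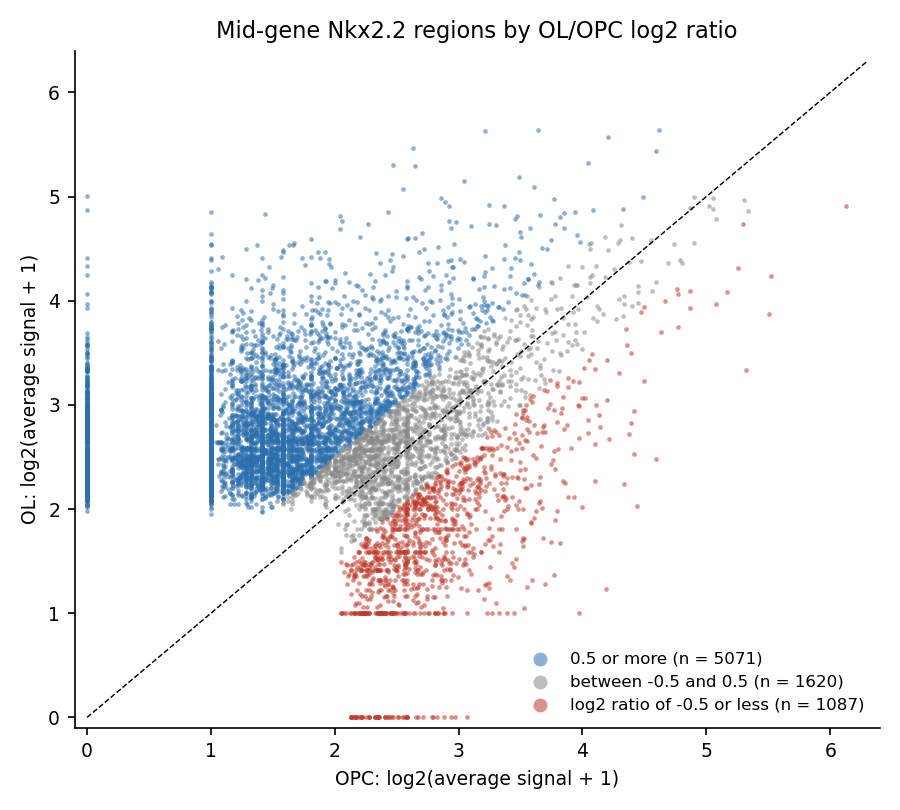
Average Nkx2.2 signal of the 7778 mid-gene regions in OPC (x axis) and OL (y axis), each as log2(average signal + 1), with 1 point per region and the line of equal signal dashed. The 1087 members (red) lie below the line by the rule, with the rows of points at 0 and 1 on the OL axis showing OL averages of 0 and 1, while 5071 regions (blue) lie at 0.5 or more and 1620 (grey) lie between.

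The OL library had more signal at most regions, and the members go against that tilt. Over all 37271 regions the median log2 ratio was 0.74, over regions called in both libraries 0.24, and over mid-gene regions 0.88. A log2 ratio of -0.5 or less was seen at 13.8% of all regions and one of 0.5 or more at 61.0%. There were 2.21 regions called in OL for each region called in OPC. How the libraries were scaled to each other is not given in the sources used here. Lowering all ratios by 0.24 or 0.74, so that the regions called in both or all regions are centred at 0, raised the number of members to 1395 or 2131.

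Most members were called in OPC alone. An interval was called in OPC only at 881 members (81.0%, 78.6 to 83.3%), in both libraries at 205 (18.9%), and in OL only at 1, in Galk2, where the averages were 5.17 in OPC and 3.36 in OL. Of all mid-gene regions 14.2% were called in OPC only and 21.9% in both, and of all regions 14.7% and 23.8%, and the rule, through the OPC signal, favours OPC calls. The members called in both, counted together with the Galk2 region, were the stronger ones, with median averages of 10.3 in OPC and 5.0 in OL. Those called in OPC alone had medians of 5.13 and 2.00. An OPC average of 10 or more was seen at 148 members (13.6%), beside 4.17% of mid-gene regions and 3.55% of all regions. One of 20 or more was seen at 24 (2.21%), beside 0.63% and 0.51%. The rule favours high OPC signal, so these shares are raised by it. A log2 ratio of -1 or less was found at 537 members, which is 6.90% of mid-gene regions beside 7.03% of all regions. One of -2 or less was found at 81, which is 1.04% of mid-gene regions beside 1.21% of all regions.

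The 12 members with the highest OPC signal were all called in both libraries, so their OL signal was reduced but well above that of a typical region. The strongest lay in Frmd4b, a gene for a FERM domain scaffold protein, at chr6:97485919-97486504, 81364 bp from the start, with averages of 68.8 in OPC and 29.1 in OL and a log2 ratio of -1.21. The next lay in Hapln1, which encodes a link protein that ties hyaluronan to proteoglycans in the matrix, at chr13:89746748-89747743, with 45 in OPC and 17.8 in OL. A region of Alpk1, an alpha kinase gene, had 44.5 and 13.6. The lowest ratio of the 12, -1.99, was that of P4ha2, a subunit of the collagen prolyl hydroxylase, at chr11:53935664-53936497 with 38.9 in OPC and 9.08 in OL. The least reduced region, with 38.3 and 25.6, lay in 6330500D04Rik, an older symbol not matched to a current name here.

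The other 7 regions lay in genes for cytoskeletal, neuronal and signalling proteins. Spire1, an actin nucleator, had averages of 37.2 in OPC and 19.0 in OL. Cdk5rap2, a centrosomal protein needed for microtubule growth, had 35.0 and 16.0, and Kif21a, a kinesin motor, had 32.8 and 14.6. Sorcs2, a receptor of the VPS10 family that binds proneurotrophins, and Snph, or syntaphilin, which anchors mitochondria in axons, each reached 28.3 in OPC, with 14.3 and 16.1 in OL. The last were Notch2, a Notch receptor, with 26.3 and 15.7, and EG208426, now Iqcj, with 26.3 and 12.4. In all 12 the OL average was 9.08 or more, above the members' upper quartile of 3.35.

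The 12 lowest ratios among members with an OPC average above the members' median were all regions called in OPC only, and 7 of them were listed at 0 in OL. The lowest was in Mapk10, which encodes the neuronal kinase JNK3, at chr5:103620727-103621043 with an OPC average of 7.40. The others listed at 0 had OPC averages of 6.85 in Cadm1, a synaptic adhesion gene, 6.67 in EG621335 (Gm6213), 6.36 in Zhx3, 6.08 in Ak3l1, an adenylate kinase gene, 5.94 in Pdss2, a gene of coenzyme Q synthesis, and 5.90 in Slc13a4, a sulfate transporter gene. Thus the 7 regions listed at 0 in OL lay between the members' median of 5.60 and upper quartile of 7.58 in OPC. The upper quartile of all mid-gene regions was 4.67.

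The remaining 5 had some OL signal and higher OPC signal. Slco1c1, a transporter of the thyroid hormone T4, lay at chr6:141516611-141517540 and reached 17.3 in OPC beside 1.35 in OL, a log2 ratio of -2.96, with a highest point of 63 in OPC and 2 in OL. D230012E17Rik, now Pgap1, which remodels GPI anchors, had 14.7 and 1.00, a ratio of -2.97. Ghr, the growth hormone receptor, had 12 and 1.43. Maml2, a coactivator of Notch, had 10.5 and 1.07, and Dcbld1 had 9.91 and 1.00. The Slco1c1 region had the highest OPC average of the 12.

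**Figure D2:**
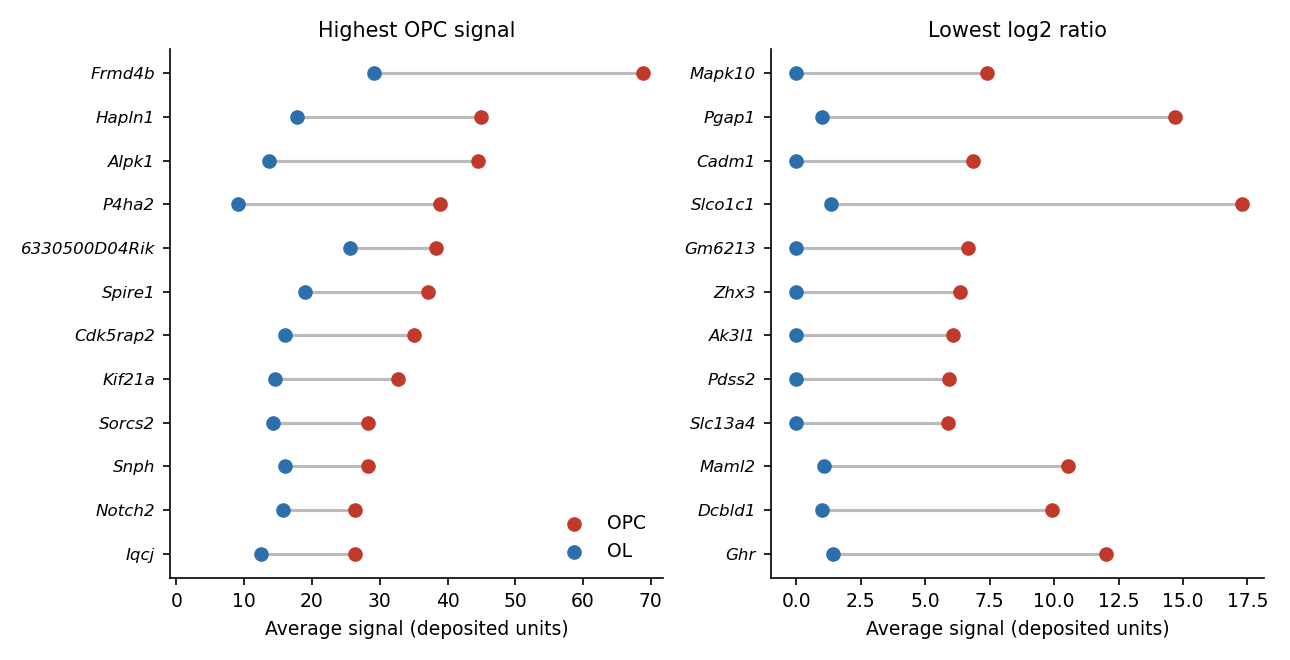
Deposited average signal (x axis) in OPC (red) and OL (blue) of the 12 members with the highest OPC signal (left) and the 12 with the lowest log2 ratio among members above the median OPC signal (right), 1 region per row, joined by a line. On the left every OL value is 9.08 or more, while on the right every OL value is 1.43 or less and 7 are at 0; the x axes differ.

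The threshold cuts through a continuous range. Just inside it were regions of 1300010F03Rik (Vwa8) with averages of 4.74 in OPC and 3.06 in OL, Acot7 with 12.3 and 8.41, and Galk2. Just outside it were Ankrd28 with 4.54 and 2.92, Sema6a with 5.06 and 3.29, and Lars2 with 4.36 and 2.80. All of these round to a log2 ratio between -0.50 and -0.49.

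In length and place the members resembled the mid-gene regions with more OL signal. Their median length was 543 bp (525 to 555), beside 546 bp in the regions at 0.5 or more and 622.5 bp in those between the limits. Length moved with the calls, since members called in both libraries or in OL alone had a median of 757.5 bp and those called in OPC alone one of 498 bp, and a region called in both is a union of at least 2 intervals. The median distance to the nearest listed start was 37978 bp for members and 35891 bp for regions with more OL signal. The share of mid-gene regions that were members was 12.6% at 10 to 20 kb, 13.7% at 20 to 40 kb, 14.9% at 40 to 60 kb, 16.2% at 60 to 80 kb and 12.9% at 80 to 100 kb. The intervals of these 5 shares overlapped, and no difference between them was tested. By chromosome the share ran from 10.6% on chromosome 12 (34 of 320) to 19.0% on X (16 of 84, 11.3 to 29.1%). Over all regions, 14.4% on chromosome 12 and 17.3% on X were at -0.5 or less, and X was again the highest. Members lay on all 20 chromosomes.

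Set beside other positions, mid-gene regions held an intermediate share of regions at -0.5 or less. The share was 18.6% at regions with no assigned gene (2038 of 10929) and 16.2% inside genes beyond 100 kb from a start (728 of 4483). It was 13.7% inside genes at 1 to 10 kb (393 of 2861) and also 13.7% outside genes more than 1 kb from a start (558 of 4067). Within 1 kb of a start it was 4.35% (288 of 6614), and the starts with a CpG island held 2.81% (155 of 5512) beside 12.1% without one (133 of 1102). The clearest contrast was therefore with the starts that have a CpG island. Among regions called in OPC, 38.6% of mid-gene regions (1086 of 2810) were members. The share meeting this ratio was 46.0% with no assigned gene, 42.8% inside genes beyond 100 kb and 40.0% at 1 to 10 kb. It was 35.8% outside genes more than 1 kb from a start. At starts it was 26.4% without a CpG island and 7.05% with one. The members were 7.56% of all 14370 OPC calls. The share of members among mid-gene OPC calls was 35.2% in the weakest of 5 equal groups by OPC signal and 44.0% in the strongest, but OPC signal enters the ratio.

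**Figure D3:**
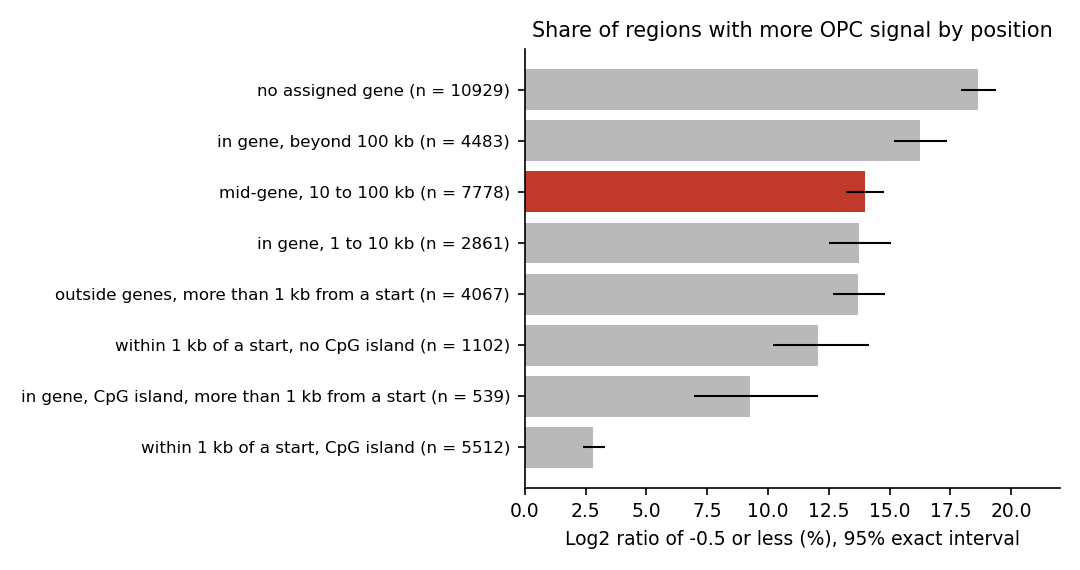
Percent of regions with a log2 ratio of -0.5 or less (x axis) by position of the region (rows, number of regions in brackets), with bars from 0 and exact 95% intervals over regions. Mid-gene regions (red, 14.0%) lie between regions with no assigned gene (18.6%) and starts with a CpG island (2.81%).

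Members were spread over many genes. Of 4072 genes that contain a mid-gene region, 916 contained a member (22.5%), of which 775 had 1, 110 had 2, 28 had 3, 2 had 4 and 1 had 5. In 511 of the 916 (55.8%) another mid-gene region was at 0.5 or more and so tilted the other way. Of the genes without a member, 2684 held such a region. A gene without a member can hold only mid-gene regions above -0.5, so the 2 counts are not compared. In 277 genes the member was the sole mid-gene region, so these genes could not hold a region at 0.5 or more. Of the genes with several mid-gene regions, 36 had members alone, and 3 of these had 3 or more: Polr3b, Ptn and Txndc3. Most members, 1054, had 1 listed gene, and 5 lay inside 2 genes. In 6 members the gene that contains the region starts more than 100 kb away, and a neighbouring gene's start gave the distance.

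Sorcs2 held the most members, 5 of its 6 mid-gene regions. From the far end towards the start their averages were 10.4 in OPC and 5.0 in OL at 84144 bp, 28.3 and 14.3 at 73667 bp, 6.71 and 2.73 at 63734 bp, 4.11 and 1.30 at 58674 bp, and 6.32 and 3.00 at 28678 bp. The sixth, at 69170 bp between the members, had 2.89 and 5.75 and was called in OL only. Beyond 100 kb, Sorcs2 had 3 more regions with more OPC signal, at 194480, 209391 and 267373 bp, with log2 ratios of -0.89, -1.18 and -1.38. Deeper still, the region at 309400 bp was listed at 0 in OPC and had 4.89 in OL. No region was listed within 1 kb of its start.

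Slc1a3 encodes GLAST, the glutamate transporter of radial glia and astrocytes, which OPCs also express. It held 4 members among 6 mid-gene regions. The strongest, chr15:8609394-8610383 at 50842 bp, had 16.1 in OPC and 5.17 in OL and was called in both libraries. The others had 5.14 and 2.55 at 46882 bp, 4.50 and 1.00 at 37639 bp, and 3.93 and 1.64 at 66451 bp, all called in OPC only. These 4 were flanked by regions called in OL only, with 2.00 and 5.56 at 28466 bp on the side of the start and 2.00 and 3.50 at 76152 bp on the other. Nearer the start the signal was again higher in OPC, with 8.44 and 6.0 at 4337 bp, a log2 ratio of -0.43, and 7.67 and 4.32 upstream of the gene at -6498 bp. The Slc1a3 members thus formed a run with 1 or more regions of more OL signal on either side, beyond which, on the side of the start, OPC signal was again higher.

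Ptch1 encodes the hedgehog receptor, itself a target of the pathway. It held 4 members among 5 mid-gene regions. The strongest, chr13:63655806-63656633 at 10609 bp, had 12.8 in OPC and 2.73 in OL and a log2 ratio of -1.88. The fifth region, at 13123 bp, was the strongest of the gene and did not tilt, with 19.8 in both libraries. Next to it deeper in the gene, 3 weak members followed, with 4.15 and 1.44 at 20067 bp, 4.21 and 1.88 at 21168 bp, and 4.67 and 2.15 at 22228 bp. The region before the start, at -640 bp, had 2.08 in OPC and 5.58 in OL, and that at 1448 bp had 1.80 and 4.24, both called in OL only. Ptch1 therefore had more OL signal at its start and more OPC signal from 10609 bp on, apart from the region that did not tilt.

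Polr3b, which encodes a catalytic subunit of RNA polymerase III, had 3 mid-gene regions and all were members. The one at chr10:84173170-84174296, 88551 bp from the start, had 19.5 in OPC and 10.9 in OL, and the other two, at 63351 and 64671 bp, had 4.84 and 2.21, and 5.05 and 2.27. Its start region, at -225 bp, had 2.11 and 4.92 and was called in OL only. Ptn encodes pleiotrophin, a secreted growth factor made by OPCs, and also had 3 members and no other mid-gene region. The Ptn averages were 7.67 in OPC and 2.09 in OL at 56099 bp, 8.31 and 3.93 at 26334 bp, and 3.82 and 1.67 at 35238 bp, and all 3 were called in OPC only. Txndc3, now Nme8, a gene of motile cilia, had 5.69 and 1.2, 3.85 and 1.60, and 7.95 and 3.44. Ptn and Txndc3 fall outside the rule for named genes and were chosen after their values were seen.

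In D230004J03Rik, now Tet3, which encodes an enzyme that oxidises methylated cytosine, 3 of 6 mid-gene regions were members. The strongest, at 48732 bp, had 26.1 in OPC and 16.3 in OL. The others had 7.54 and 3.71 at 46069 bp and 5.0 and 3.00 at 30967 bp. The region deepest in Tet3, at 72001 bp, tilted the other way with 1.25 and 6.12. The gene 6330500D04Rik had 3 members of 5, and BC033915 had 3 of 5, with averages of 11.8 in OPC and 5.68 in OL, 10.2 and 3.93, and 6.43 and 1.5.

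**Figure D4:**
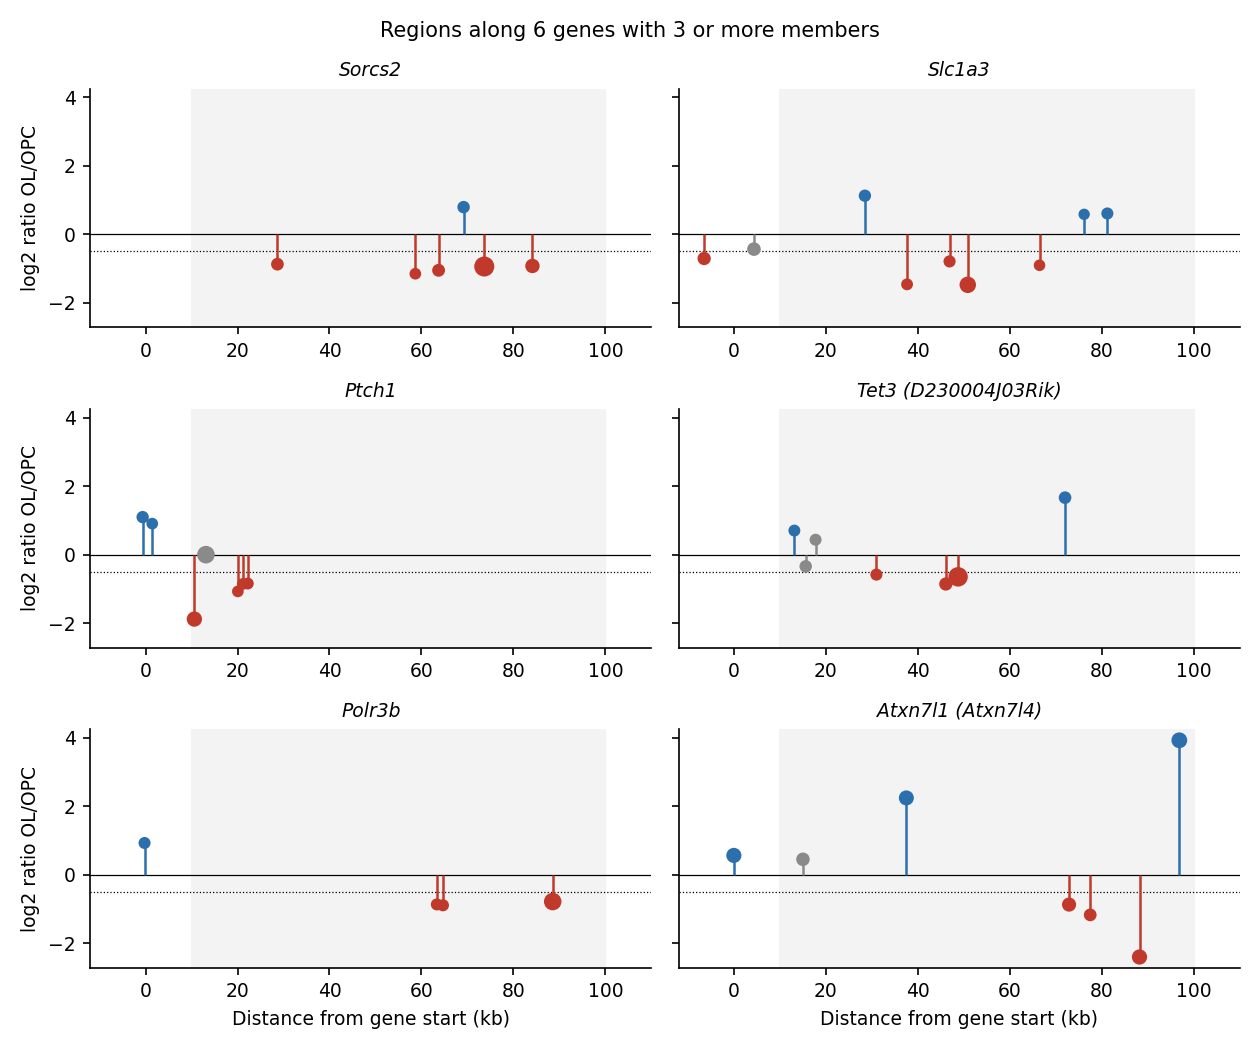
Log2 ratio of OL to OPC average signal (y axis) of each listed region by its distance from the gene start in kb (x axis) for 6 genes with 3 or more members; red marks ratios of -0.5 or less, blue 0.5 or more, grey between, dot size grows with the larger signal, the dotted line is -0.5 and shading spans 10 to 100 kb. In Polr3b, Ptch1 and Atxn7l1 the region at the start lies above 0 while members lie below, and in Slc1a3 the 4 members lie between regions above 0.

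Some genes held regions of opposite tilt, either next to each other or far apart. In Atxn7l4, now Atxn7l1, a paralogue of a subunit of the SAGA complex, the region at chr12:33920462-33921220, 88196 bp from the start, had 12.6 in OPC and 1.58 in OL. The next region, at 96858 bp, was listed at 0 in OPC and had 14.2 in OL. Another Atxn7l1 region, at 37481 bp, had 1.75 and 12, while members at 72873 and 77477 bp had 9.73 and 4.87, and 6.41 and 2.29. Along Atxn7l1, then, the 3 members were flanked on either side by regions with more OL signal. In 2810055G22Rik, now Rnf216, a ubiquitin ligase gene, a member at 64545 bp had 5.0 in OPC and was listed at 0 in OL, while the region at 66147 bp had 2.00 and 9.35. Pde9a, a cGMP phosphodiesterase gene, had a member with 11.8 and 2.31 at 65206 bp and a region listed at 0 in OPC with 7.81 in OL at 16773 bp. Hipk2, a nuclear kinase gene, had a member with 4.0 in OPC that was listed at 0 in OL, and a region with the reverse, 0 in OPC and 7.63 in OL. The gene A630038E17Rik, also not matched to a current name, had a member with 5.0 and 2.06 and a region listed at 0 in OPC with 6.20 in OL.

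Around a member, other regions were at -0.5 or less more often than around other mid-gene regions. Taking each member with each other mid-gene region of the same gene, 432 of 2119 pairs (20.4%) had the other region at -0.5 or less, and 55.5% had it at 0.5 or more. Over the pairs of any mid-gene region the share at -0.5 or less was 14.1% (2119 of 15050), from regions between the limits it was 15.6%, and from regions at 0.5 or more 12.2% (1175 of 9646). The nearest listed region lay within 5 kb of 266 members, and 82 of these neighbours (30.8%, 25.3 to 36.8%) were at -0.5 or less while 113 (42.5%) were at 0.5 or more. Such neighbours were at -0.5 or less for 72 of 440 regions between the limits (16.4%, 13 to 20.2%) and for 116 of 1248 regions at 0.5 or more (9.29%, 7.74 to 11.0%). Within 20 kb the shares were 22.3% (160 of 716) for members, 14.5% for regions between the limits and 10.0% for regions at 0.5 or more. The median distance to the nearest region was 12359 bp from members and 12363.5 bp from regions with more OL signal. These ratios come from the same 2 libraries as the rule, and a pair of members counts from both sides, so the shares are a description and their intervals cover counting error over regions only.

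At the starts of the genes with a member, the signal tilted towards OL as it did elsewhere. A region within 1 kb of the start was listed for 382 of the 916 genes (41.7%), and its median log2 ratio was 0.56. In 22 of these genes (5.76%, 3.64 to 8.59%) the start region was at -0.5 or less. In genes with a mid-gene region at 0.5 or more and no member, 1200 of 2684 had a start region (44.7%), with a median log2 ratio of 0.63 and 41 at -0.5 or less (3.42%, 2.46 to 4.61%). These intervals overlap.

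Genes were then taken by function, in 32 lists. All 32 lists held at least 1 member, 20 had a share above the 14.0% of all mid-gene regions, and the 95% interval of 31 lists held that share. A count near 14.0% is thus no feature of a list, and with as many lists an interval can miss the share by counting error.

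**Figure D5:**
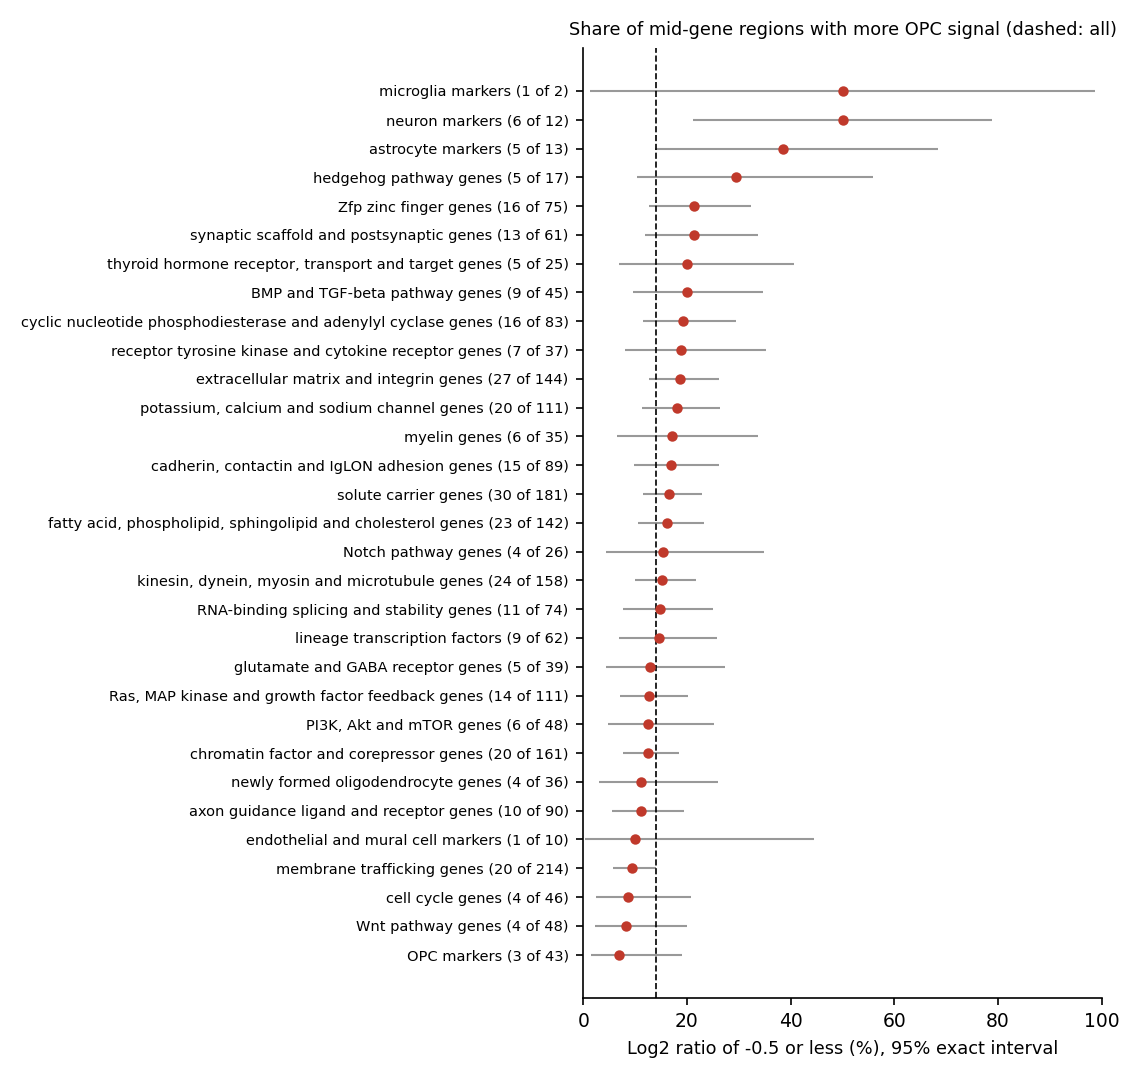
Percent of mid-gene regions with a log2 ratio of -0.5 or less in 31 of the 32 gene lists (points, members of mid-gene regions in brackets), with exact 95% intervals over regions and the share of all mid-gene regions, 14.0%, as a dashed line. The interval of the neuron markers, 6 of 12 regions, lies above the line and those of the other lists shown hold it.

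Genes of the oligodendrocyte lineage had shares around the background, and the interval of each of their lists held it. Of 43 mid-gene regions in OPC marker genes 3 were members (6.98%), and 27 were at 0.5 or more. Sox5, which holds oligodendrocyte precursors back from differentiation, had members with 6.71 in OPC and 3.42 in OL at 43039 bp and with 5.0 and 2.73 at 27864 bp, and Xylt1, which starts glycosaminoglycan chains, had 6.22 and 3.35. Lineage transcription factors had 9 members of 62 regions (14.5%), each in a different gene. The strongest were in Nfib, a nuclear factor I gene, with 8.5 and 4.92, and Prrx1, a homeobox gene, with 8.00 and 4.62. Tcf4, a partner of the OLIG proteins, had 4.92 in OPC and was listed at 0 in OL. Zeb2 and Myt1, which promote oligodendrocyte maturation, had weak members with 4.20 and 2.32, and 3.45 and 1.60.

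Newly formed oligodendrocyte genes had 4 members of 36 regions (11.1%). They were Tmem2, now Cemip2, a cell surface hyaluronidase, with 10.6 in OPC and 6.72 in OL, Frmd4a with 6.50 and 3.73, Cnksr3 with 4.69 and 1.00, and Rras2 with 4.0 and 2.14. Myelin genes had 6 of 35 (17.1%). The strongest of these lay in Anln, or anillin, which is known both from cell division and from myelin septin filaments, at chr9:22180409-22181071 with 15.0 in OPC and 3.06 in OL. Pde8a, a cAMP phosphodiesterase, had 6.65 and 1.80, Apod, the lipid carrier apolipoprotein D, 5.64 and 2.12, and Ugt8a, which makes galactosylceramide, 4.80 and 2.10. The remaining 2 were weak members in Dock10 and Ank2.

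Receptors and signalling genes were near the share of all mid-gene regions. Receptor tyrosine kinase and cytokine receptor genes had 7 members of 37 (18.9%), among them Fgfr2, a fibroblast growth factor receptor, with 7.2 in OPC and 3.89 in OL, Egfr with 7.11 and 1.36, the phagocytic receptor Mertk with 6.41 and 2.53, and the insulin receptor Insr with 6.32 and 1.00. Ras and MAP kinase genes had 14 of 111 (12.6%), led by Map2k6, a kinase that activates p38, with 17.4 and 9.76. Shc4, an adaptor of tyrosine kinases, had 2 members, with 8.45 and 2.25, and 8.00 and 4.60. PI3K, Akt and mTOR genes had 6 of 48 (12.5%). In that list the regulatory subunit gene Pik3r1 had 2 members, with 4.38 and 1.17, and 4.35 and 2.22, and the catalytic subunit gene Pik3cb had 4.93 and 3.10.

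Developmental pathways rested on few regions each, and the interval of each list held the share of all mid-gene regions. Hedgehog genes had 5 members of 17 (29.4%, 10.3 to 56%), 4 of them in Ptch1 and the other in Gli2, a transcription factor of the pathway, with 12.9 in OPC and 4.96 in OL at chr1:120878907-120879648. BMP and TGF-beta genes had 9 of 45 (20.0%). Smad1, a transducer of BMP signals, had 19.4 and 12.2, and the ligand gene Tgfb2 had 2 members with 7.84 and 4.50, and 6.00 and 2.44. The receptor gene Acvr1 had 6.00 and 2.89, and the inhibitory Smad7 3.60 and 1.27. Notch genes had 4 of 26 (15.4%), namely Notch2, 2 regions of Maml2 and Adam10, a protease that cleaves Notch, with 6.48 and 1.25. Wnt genes had 4 of 48 (8.33%), with OPC averages of 3.75 to 5.38, in Rspo2, Wif1 and, with 2 regions, Lgr6.

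Thyroid hormone genes, of interest since T3 was added to make the OLs, had 5 members of 25 (20.0%, 6.83 to 40.7%). Among them were the transporter gene Slco1c1, described above, Rxra, the partner of the thyroid hormone receptors, with 5.93 in OPC and 2.50 in OL, and Pparbp, now Med1, a Mediator subunit that nuclear receptors bind, with 5.94 and 3.33. The Slco1c1 region stood far above the other 4 in OPC.

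Adhesion and matrix genes included several of the stronger members. Extracellular matrix and integrin genes had 27 members of 144 (18.8%, 12.7 to 26.1%) in 23 genes. After Hapln1, which had a second member with 6.26 in OPC and 1.79 in OL, came Hs3st3a1, a heparan sulfate sulfotransferase, with 12.9 and 2.96. Next were the integrin gene Itga11 with 11.5 and 3.73, and the laminin gene Lamb3 with 11.4 and 5.62. The Itga11 region lies 105438 bp from that gene's start, and the start of the neighbouring Fem1b gave its distance under the rule. Tnc, the matrix protein tenascin C of OPCs, had a weaker member with 5.0 and 2.00. Cadherin, contactin and IgLON genes had 15 of 89 (16.9%). Cdh20, a cadherin gene, led with 21.5 and 8.39 at chr1:106711528-106712581, followed by Cntnap5a with 15.2 and 7.39, Chl1, a neural adhesion molecule, with 13.8 and 8.6, and Fat1 with 10.6 and 4.23. Cdh6 was listed at 0 in OL with 4.09 in OPC. Axon guidance genes had 10 of 90 (11.1%), among them Sema5b with 11.0 and 2.65, Epha7 with 8.61 and 5.67, Sema6d with 6.61 and 1.67 and Ntn4, a netrin gene, with 5.93 and 1.22.

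Genes known from neuronal synapses, many of which OPCs also express, were taken in a pair of lists. Synaptic scaffold and postsynaptic genes had 13 members of 61 (21.3%, 11.9 to 33.7%). They came from 8 genes, with 3 members each in Nrxn2, a neurexin, and Nlgn1, a neuroligin, which bind each other across the synapse. The Nlgn1 members had OPC averages of 4.36, 4.29 and 3.67 beside 1.67, 2.46 and 1.67 in OL. The strongest of the list were Sv2c, a synaptic vesicle protein gene, with 10.1 and 3.95, and Rims4 with 7.86 and 3.86. Next came Cadm1, described above, with 6.85 in OPC and listed at 0 in OL, and Dlg4, which encodes PSD-95, with 6.29 and 1.86. Glutamate and GABA receptor genes had 5 of 39 (12.8%): the metabotropic Grm3 had 2, with 6.17 and 1.39, and 4.0 and 1.91, and Gria1, an AMPA receptor subunit, had 4.92 and 2.62. The others were Grik4 with 4.16 and 1.00 and Gabra2 with 4.11 and 2.00.

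Channels and transporters held many members of modest size. Potassium, calcium and sodium channel genes had 20 members of 111 (18.0%, 11.4 to 26.4%). The leak potassium channel gene Kcnk10 and the A-type channel gene Kcnd3 had 3 each, and the strongest Kcnk10 member had 12.9 in OPC and 8.24 in OL. Cacng5, an AMPA receptor auxiliary subunit, had 11.0 and 1.5, a log2 ratio of -2.27, and Tmem16f, now Ano6, a lipid scramblase, had 9.11 and 2.17. Solute carrier genes had 30 of 181 (16.6%) in 26 genes. Besides Slco1c1 and Slc1a3, Slc14a2, a urea transporter, had 13.7 and 8.00 and Slc38a1, a glutamine transporter, had 10.8 and 6.41. The mitochondrial carrier gene Slc25a25 had 2 members, with 9.05 and 2.50, and 6.77 and 2.50.

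Cytoskeletal genes were close to the background share. Kinesin, dynein, myosin and microtubule genes had 24 members of 158 (15.2%). After Kif21a came Kif1b, a motor that zebrafish oligodendrocytes need to place myelin mRNA, with 20.4 in OPC and 4.76 in OL at chr4:148629300-148629911, Kif5c with 11.6 and 3.21, and Myo10, a myosin of filopodia, with 9.92 and 1.73. Membrane trafficking genes had the largest number of regions of these lists and 20 of 214 were members (9.35%, 5.80 to 14.1%), led by Epn2, an endocytic epsin gene, with 13.2 and 6.59, and Dennd2a, which had 3.

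Nuclear and metabolic genes gave a similar picture. Chromatin factor and corepressor genes had 20 members of 161 (12.4%). After Tet3 came Arid1a, a subunit of the BAF remodelling complex, with 9.81 in OPC and 3.33 in OL, and Jarid2, a partner of Polycomb complex PRC2, with 7.07 and 3.08. Tle1, a Groucho corepressor of the kind Nkx2.2 recruits, had a member with 4.71 and 1.73. RNA-binding genes had 11 of 74 (14.9%), with A2bp1, now Rbfox1, a splicing factor, at 10.5 and 3.00, Msi2, a translational regulator, at 9.06 and 4.07, and 5.69 and 3.09, and Cpeb2 at 5.38 in OPC and listed at 0 in OL. Zfp zinc finger genes had 16 of 75 (21.3%, 12.7 to 32.3%), led by Zfpm2, a cofactor of GATA factors, with 12.8 and 6.13, and Zfp609 with 9.50 and 5.03.

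Lipid genes had 23 members of 142 (16.2%). Srebf1, a master regulator of lipid synthesis, had 10.9 in OPC and 5.67 in OL, and Pitpnc1, a phospholipid transfer protein, had 3 members, with OPC averages of 11.8, 9.26 and 3.77. St8sia1, the synthase of ganglioside GD3, which OPCs carry, had 9.46 and 1.57, a log2 ratio of -2.02. Genes of cyclic nucleotide signalling had 16 of 83 (19.3%, 11.4 to 29.4%), with 3 members in Pde7b and 2 each in Pde9a, Prkg2 and Rapgef4. The strongest after Pde9a was in Prkg2, a cGMP-dependent kinase, with 7.43 and 2.16. Cell cycle genes had 4 of 46 (8.70%). Cdk8, a kinase of the Mediator complex, had 19.7 and 5.58, and Cdk6, which drives entry into S phase, had 11.6 and 3.94 at chr5:3399678-3400552. Pctk2, now Cdk17, and Mad1l1 held the other two.

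Markers of other cell types were looked at because the cultures could hold other cells, but a region in a gene does not show that it is expressed. Neuron markers had 6 members of 12 regions (50.0%, 21.1 to 78.9%), the sole list whose interval lay above 14.0%. The 12 regions lay in 6 genes and the members in 4, while the interval takes each region as independent. Of the 6 members, 3 lay in Mtap2, the microtubule protein MAP2. Their averages were 7.0 in OPC and 1.88 in OL, 5.75 and 1.00, and 4.96 and 1.71. The others lay in Camk2a, a synaptic kinase, with 4.90 and 1.33, Slc17a6, a vesicular glutamate transporter, with 4.08 and 1.00, and Reln, or reelin, with 3.8 and 2.11. All 6 lay below the members' upper quartile of 7.58 in OPC and were called in OPC only. Of the other 6 regions 4 were at 0.5 or more. The filter on low signal keeps regions whose mean signal is above the median. With it, 1 of 5 neuron marker regions was a member beside 14.0% of mid-gene regions. On 5 regions it cannot be told whether the list stands apart. Centring on all regions gave 8 of 12 beside 27.4% of mid-gene regions, and OPC calls alone gave 6 of 9 beside 38.6%. The other settings gave 5 to 7 of 12. Astrocyte markers had 5 of 13 (38.5%, 13.9 to 68.4%), the 4 Slc1a3 members and 1 in Aldh1l1, a folate enzyme, with 8.33 and 1.43, while 7 of the 13 were at 0.5 or more and the median log2 ratio of the list was 0.58. The microglia and blood lineage factor Runx1 had 1 member with 5.90 and 1.5, among 2 regions of its list, and the endothelial gene Pecam1 1 with 5.95 and 3.57, among 10. Whether other cells in either culture had a part in these regions was not tested.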

How the data were processed

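Nkx2.2 ChIP-seq was deposited for 1 OPC and 1 OL library. The authors deposited the average and highest signal of each library over joined regions and marked the library in which an interval was called, per the file headers. Per the submitters' processing notes, BWA, MACS 1.4.2 and build mm9 were used. How intervals were thresholded, whether the input entered, how libraries were scaled and how signal was averaged is not given in the sources used here. Sequencing depth is unknown. Coordinates are printed as deposited, and whether starts count from 0 or 1 is not stated.

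From the deposited signal, log2((OL + 1)/(OPC + 1)) was computed with no filter on low signal (Python 3.11.15, pandas 2.3.3, scipy 1.17.1). This ratio understates differences of weak regions. A region was credited to each gene that contains it. Shares carry exact Clopper-Pearson 95% intervals over regions. The rule for members and the pairs of regions in the same gene were checked on a simulated table with known members. Counts by call, gene list, start region and neighbour were not part of that check.

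The members, the gene lists and the rules were chosen with earlier results of these data known. False matches in gene list patterns were removed after the table was read, some of them after list counts had been seen. Named genes are the 12 members with the highest OPC signal, the 12 with the lowest ratio above the median OPC signal, the 8 genes with most members, up to 4 regions per list by OPC signal, 3 regions on either side of the threshold and the 5 genes with the widest spread of ratios. Other members of the lists are named where they describe a gene's role, chosen after their values were seen. Some results are not reported here. Older symbols were matched to RefSeq GRCm38.p6 for names alone (871 of 916 genes, 860 of them protein coding). The alternatives were other pseudocounts, the peak signal, centred ratios, a filter on low signal and OPC calls alone.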

Additional observations from a re-analysis of the deposited data

How the results depend on the processing

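The limits are set by 1 library per state, an unknown depth and an unknown scaling. No library could be left out, and the authors had already joined the regions, so that no other overlap could be tried. No paired analysis was possible because each state has 1 library. Of the 1087 members a pseudocount of 0.5 kept 1087, one of 2 kept 982 and the peak signal 1030, which made 1220 members with 190 others. The share of mid-gene regions that were members was 12.6% with a pseudocount of 2, 15.7% with the peak signal, and 38.6% among regions called in OPC. Centring on regions called in both gave a share of 17.9%, centring on all regions 27.4% with 2131 members, and the filter on low signal left 526 members. With the peak signal 78.1% of members were called in OPC only, with centring on regions called in both 72.9%, on all regions 51.8%, and with the filter 61.0%. Their median length was then 559, 583 and 640 bp under the last 3 settings. Genes with a member numbered 1612 when centred on all regions and 484 with the filter. Genes with 2 or more numbered 215 and 385 under the centrings and 39 with the filter. The share of other regions of the same gene at -0.5 or less was 24.4% and 34.3% under the centrings, 17.7% with the filter and 44.4% among OPC calls. Because the filter and the OPC calls keep fewer regions, their counts are not on the same base. The number of lists above the share of all mid-gene regions was 16 to 20 over these settings. Counts of single lists moved by over 1.5 times in 24 lists when centred on all regions, 4 when centred on regions called in both, 29 with the filter and 1 with the peak signal.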
